A study of Sus scrofa with 599 samples.

Results

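The genes described here are 10 members of the insulin-like growth factor (IGF) axis, taken by symbol: the ligands IGF1 and IGF2, the receptors IGF1R and IGF2R, and the binding proteins IGFBP2, IGFBP3, IGFBP4, IGFBP5, IGFBP6 and IGFBP7. They were measured in adipose tissues (ATs) of female Bama pigs that were 2 years old when the diets began. Of the 21280 rows of protein-coding genes in the expression tables, 8 could be tied to these symbols. IGF2 and IGFBP3 could not, so their expression was not analysed here, and only their chromatin is described. The normal condition (NC) pigs received a normal diet, and the weight-gain (WG) pigs were fed high-fat chow over 22 weeks. The weight-loss (WL) pigs were WG pigs that were afterwards kept for 12 weeks at 10% of the normal caloric intake. WL pigs were therefore also older at sampling than WG pigs. The visceral ATs greater omentum (GOM), mesenteric (MAD) and retroperitoneal (RAD) fat and the subcutaneous upper layer of backfat (ULB) were taken. RNA-seq was available for 236 samples: 9 GOM, 12 MAD, 12 RAD and 5 ULB samples in NC, 45, 36, 39 and 38 in WG, and 10 of each AT in WL. Hi-C, which measures chromatin contacts, was available for 240 samples, and H3K27ac ChIP-seq, which marks active enhancers and promoters, as 18 tables of pooled libraries.

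IGF1 and IGF2 are secreted peptides that promote growth and survival of cells. IGF1R is the tyrosine kinase receptor through which they signal, whereas IGF2R, also the mannose 6-phosphate receptor, takes up IGF2 for breakdown in lysosomes. The binding proteins hold the ligands outside the cell and either block or prolong their action, and proteases release the ligands again. In fat, IGF1 is made in response to growth hormone by adipocytes and by stromal cells, and acts on preadipocytes as a mitogen and a differentiation signal.

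The samples held 3337098 to 22939420 estimated counts, with a median of 16791700. One WG GOM sample, replicate 35, stood apart: its median correlation with the other samples of its group was 0.765, the next lowest was 0.952, and it was the shallowest library. It also held the highest IGFBP7 level of all samples (3739 TPM) and the lowest IGF1 level (3.75 TPM). Replicate 6 of WG MAD, the shallowest library of its group (4841230 counts), held the highest IGF2R level of all samples (100.85 TPM). Its IGFBP7 level was 1631 TPM, and no fit left it out on its own. In 40 of the 236 samples, under 88% of the summed TPM, a length-corrected transcript share, fell on protein-coding genes, 7 of 9 in NC GOM, 2 of 12 in NC MAD, 6 of 12 in NC RAD, 2 of 5 in NC ULB, 6 of 10 in WL GOM and in WL MAD, 2 of 10 in WL RAD and 3 of 10 in WL ULB, but 3 of 45 in WG GOM, 2 of 36 in WG MAD, 0 of 39 in WG RAD and 1 of 38 in WG ULB. Libraries of a low share were thus unevenly spread over the diets, and the count of calls without them is given with each diet comparison. Adipocyte markers were high in every group, with a median summed level of 7303 TPM in NC GOM, the lowest group, and 21940 TPM in WL RAD, the highest. Single samples fell to 3830 TPM in NC MAD and 3686 TPM in WL MAD. The smooth muscle marker sum reached 12920 TPM in NC MAD (median 889). Sums of B cell and T cell markers reached 509 and 494 TPM in WL MAD (medians 19.65 and 37.45). Some MAD samples may thus hold other tissue, and no fit left them out on their own. Mesothelial markers, of which 2 of 6 (KRT8 and WT1) were measured, had median sums of 170 to 235 TPM in GOM and of 4.51 to 12.2 TPM in the other ATs. WT1 was near 0 in ULB, with group medians of 0.0144 to 0.627 TPM. In bulk tissue, fewer cells of a type and less RNA per cell cannot be told apart.

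The promoters of IGF1, IGFBP5, IGF2R and IGFBP4 are shown for orientation. They are the 250 bases before the RefSeq start site in Sscrofa11.1, 5′ to 3′ on the gene's strand. Capitals mark 3 short motifs found on either strand: the TATA box (TATAAA), the CCAAT box (CCAAT) and the GC box (GGGCGG). IGF1 and IGFBP5, both higher in ULB, are given first. IGF1 lies at chr5:81762027-81909253 on the plus strand, and its promoter at chr5:81761777-81762026. IGFBP5 lies at chr15:118861816-118877787 on the minus strand, next to IGFBP2 at chr15:118822092-118850985 on the plus strand. The IGFBP5 promoter is chr15:118877788-118878037. IGF2R, lower in WL, lies at chr1:7369485-7472480 on the minus strand, with its promoter at chr1:7472481-7472730. IGFBP4, higher in WL, lies at chr12:21966524-21980043 on the minus strand, with its promoter at chr12:21980044-21980293.
IGF1: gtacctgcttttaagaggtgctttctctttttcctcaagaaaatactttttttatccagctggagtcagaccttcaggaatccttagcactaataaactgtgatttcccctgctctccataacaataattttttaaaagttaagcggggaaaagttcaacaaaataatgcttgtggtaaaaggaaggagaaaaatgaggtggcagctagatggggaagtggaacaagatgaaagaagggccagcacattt
IGFBP5: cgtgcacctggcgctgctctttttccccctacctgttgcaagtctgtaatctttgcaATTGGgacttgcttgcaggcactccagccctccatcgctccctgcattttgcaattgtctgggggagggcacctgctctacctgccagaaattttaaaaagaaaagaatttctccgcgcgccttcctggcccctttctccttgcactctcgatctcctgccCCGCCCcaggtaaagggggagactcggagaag
IGF2R: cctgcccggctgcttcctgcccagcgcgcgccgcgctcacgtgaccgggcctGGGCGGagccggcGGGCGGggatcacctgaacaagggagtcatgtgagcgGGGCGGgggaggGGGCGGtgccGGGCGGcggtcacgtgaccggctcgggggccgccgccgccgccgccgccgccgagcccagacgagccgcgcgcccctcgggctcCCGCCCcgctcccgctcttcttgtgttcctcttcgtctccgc
IGFBP4: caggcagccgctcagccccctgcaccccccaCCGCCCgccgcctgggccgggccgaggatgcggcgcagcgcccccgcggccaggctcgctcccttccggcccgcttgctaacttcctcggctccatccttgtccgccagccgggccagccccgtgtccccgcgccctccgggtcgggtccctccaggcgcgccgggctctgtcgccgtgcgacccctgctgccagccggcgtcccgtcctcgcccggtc
The IGF1 promoter held 1 CpG at a GC content of 38.8% and none of the 3 motifs. The IGFBP5 promoter held 9 CpGs at 55.2% GC, with 1 CCAAT box (read on the other strand) and 1 GC box. The IGF2R promoter held 39 CpGs at 78.8% GC and 6 GC boxes, and the IGFBP4 promoter 33 CpGs at 79.2% GC and 1 GC box. Over 19531 promoters of the same length, the median was 12 CpGs and 57.6% GC, 43.3% held 9 CpGs or fewer, and a TATA box, CCAAT box or GC box was found in 9.8%, 31.9% and 45.9%. Among the other members, IGF1R held 44 CpGs and 4 GC boxes, and IGFBP2 held 22 CpGs and 1 GC box.

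All 8 measured members were above 0.5 TPM in 80% or more of samples in all 12 groups. TPM is corrected for transcript length, so levels of different genes can be set side by side within a sample. Between groups, TPM levels also carry the protein-coding share of the libraries. Its median was 79.0% in NC GOM, 93.1% in WG GOM and 87.5% in WL GOM. IGFBP7, a secreted protein of the vessel wall that binds IGFs weakly, was the most abundant member in the visceral ATs and took group means of 57.9% to 63.4% of the summed TPM of the 5 measured binding proteins there, against 40.03% to 46.1% in ULB. IGFBP5, which binds both IGFs and also extracellular matrix, took 37.8% ± 16.1 (SD, n = 5) of this sum in NC ULB, 39.5% ± 15.2 (n = 38) in WG ULB and 25.5% ± 6.13 (n = 10) in WL ULB, but group means of 6.94% to 21.2% in the visceral ATs. The ligand IGF1 and both receptors lay between 16.5 and 76.3 TPM in group means. The log2 ratio of IGF1 to IGF1R was -0.65 ± 0.36 (SD, n = 9) in NC GOM and 2.39 ± 0.82 (n = 38) in WG ULB, the lowest and the highest of the 12 groups.

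**Figure D1:**
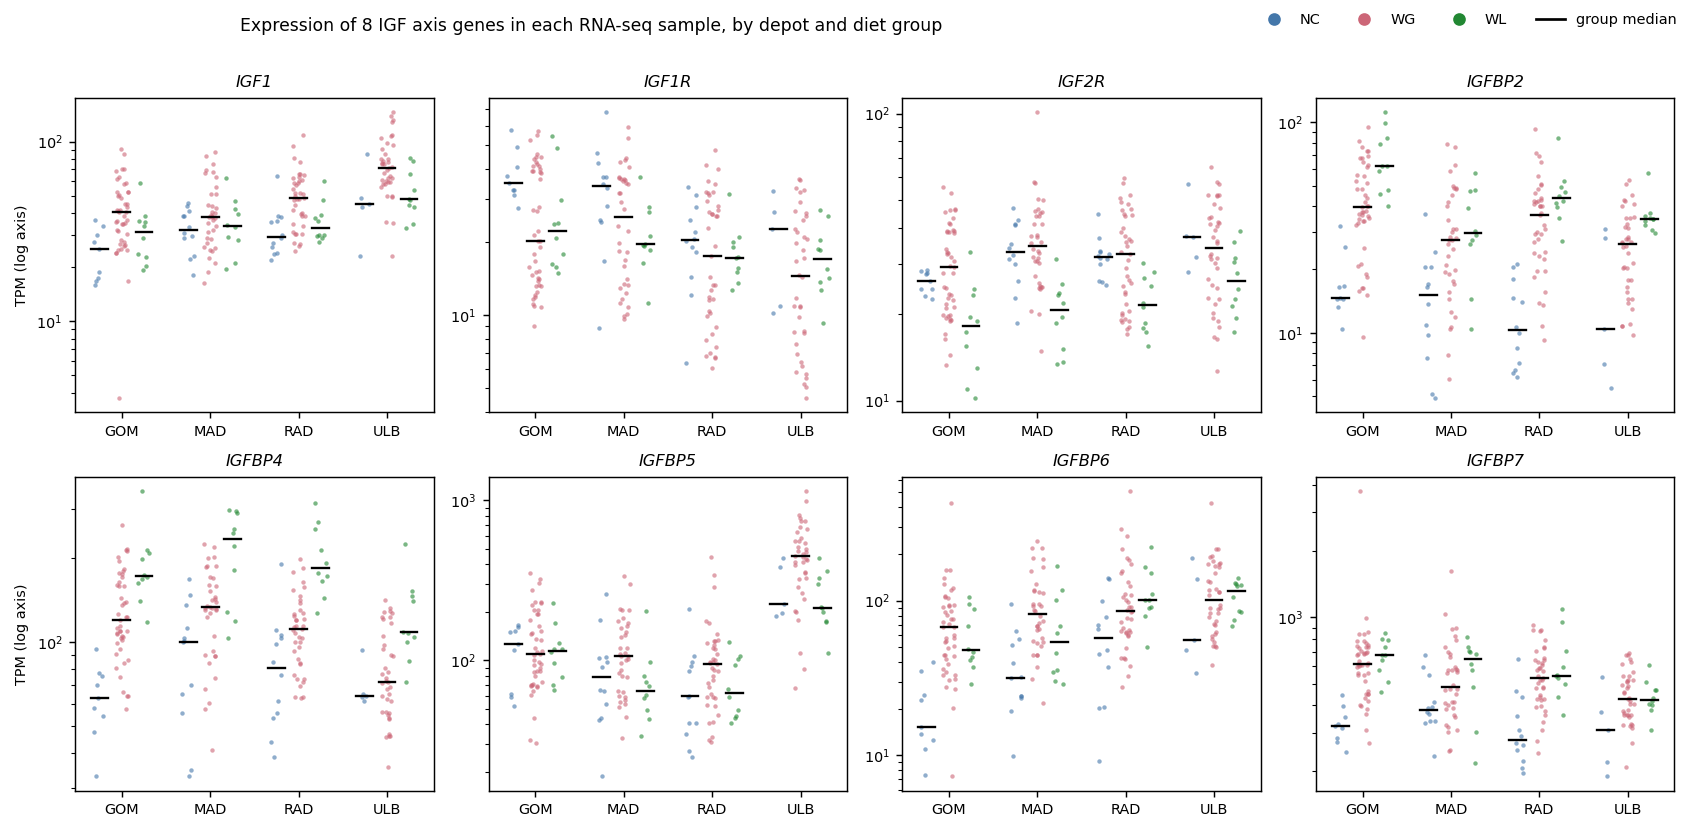
TPM of the 8 measured members (panels, log axis) in every RNA-seq sample of the 12 groups of diet and AT, with 1 point per sample and a bar at the group median. IGFBP5 and IGF1 sit highest in ULB under each diet, and IGFBP2 and IGFBP4 sit lower in NC than in WL.

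Differences between groups were tested with edgeR's quasi-likelihood test on the estimated counts, and a gene was called when its Benjamini-Hochberg adjusted p was below 0.05 and its fold above 1.5. The standard error (SE) follows each log2 fold change. Samples are numbered in the labels, with no animal named, and p-values measure the spread between samples only. The ATs of a diet were cut from the same carcasses, which the tests of AT pairs did not use. Between ATs, 9 of 48 member tests were called in NC, 12 of 48 in WG and 13 of 48 in WL, that is 18.8%, 25.0% and 27.1%, where 13%, 10.8% and 10.1% of the tests of all genes were called. In NC, members called were 4 of 8 between GOM and ULB (25.4% of all genes), 2 between GOM and RAD (19.5%), 2 between MAD and ULB (7.73%) and 1 between RAD and ULB (4.32%). In WG they were 6 between GOM and ULB (17.9%), 4 between MAD and ULB (14.4%) and 2 between RAD and ULB (9.27%). In WL they were 7 between GOM and ULB (16%), 2 between MAD and ULB (14.4%), 2 between RAD and ULB (4.34%), 1 between MAD and GOM (5.97%) and 1 between GOM and RAD (12.2%). Comparisons with ULB therefore held 30 of the 34 AT calls. In 6 pairs of visceral ATs edgeR called 0 members. These were MAD and RAD in NC (2.41% of all genes), WG (5.4%) and WL (7.31%), each with 2 members at an unadjusted p under 0.05 and 0 by DESeq2. The others were GOM and MAD in NC (17.7%, 3 members at an unadjusted p under 0.05 and 1 by DESeq2), GOM and MAD in WG (6.27%, 3 and 0) and GOM and RAD in WG (11.2%, 2 and 0).

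Among the ligands, IGF1 was higher in ULB than in each visceral AT under each diet, in 9 of 9 comparisons, of which 5 were called, with log2 fold changes of 0.47 to 0.97. In NC ULB the 5 samples held 23.02, 43.04, 44.7, 48.4 and 84.9 TPM, and NC GOM ranged from 15.8 to 36.8 TPM (median 25.4). In WG, IGF1 ranged from 23.1 to 145 TPM (median 71.4) in ULB, from 3.75 to 91.1 (median 40.4) in GOM, from 16.3 to 87.4 (median 37.95) in MAD and from 24.5 to 108 (median 48.2) in RAD. The groups overlapped, while the ULB median exceeded the 3 visceral medians. The log2 fold change of WG ULB was 0.97 ± 0.12 over GOM (edgeR adjusted p = 1.45e-11), 0.93 ± 0.12 over MAD (adjusted p = 1.96e-09) and 0.63 ± 0.11 over RAD (adjusted p = 2.64e-06). NC ULB exceeded NC GOM by 0.91 ± 0.24 (edgeR adjusted p = 0.00818), and WL ULB exceeded WL GOM by 0.76 ± 0.20 (adjusted p = 0.0076). These last differences were 0.69 (adjusted p = 0.326) and 0.39 (adjusted p = 0.214) for IGF1 without the libraries of a low protein-coding share. NC ULB and NC RAD, with 0.47 ± 0.23 (adjusted p = 0.311), did not differ beyond their spread.

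IGFBP5 was higher in ULB than in every visceral AT under all 3 diets, and all 9 comparisons were called. The 5 NC ULB samples held 189, 197, 225, 385 and 439 TPM, whereas NC GOM ranged from 52.3 to 167 TPM (median 127), NC MAD from 18.8 to 262 (median 78.7) and NC RAD from 25.1 to 209 (median 59.8). All NC ULB samples lay above the highest NC GOM sample and overlapped with the upper MAD and RAD samples. The share of all genes without overlap between NC ULB and NC GOM was not computed. In WG ULB it ranged from 67.2 to 1141 TPM (median 447), against visceral medians of 95.1 to 110. In WL ULB it ranged from 112 to 435 TPM (median 213), against visceral medians of 62.9 to 115. The log2 fold changes of ULB over the visceral ATs were 1.25 to 1.90 in NC, 1.89 to 2.12 in WG and 1.10 to 1.73 in WL. The widest was WG ULB over WG RAD, 2.12 ± 0.19 (edgeR adjusted p = 2.03e-15). In WG, the difference of IGFBP5 from GOM was 1.87 (adjusted p = 5.45e-17) without replicate 35. With NC ULB at 5 samples, the difference of IGFBP5 from NC MAD, 1.59 ± 0.42 (adjusted p = 0.0229), missed the threshold without replicate 9 (1.37, adjusted p = 0.0757) or replicate 12 (1.47, adjusted p = 0.0601). Without libraries of a low protein-coding share the NC differences were 1.31, 1.38 and 1.91 from GOM, MAD and RAD, with adjusted p of 0.11, 0.142 and 0.16 for IGFBP5. Markers of progenitors and fibroblasts (6 of 6 measured) were also highest in ULB in NC and WG, with median sums of 3459 and 3009 TPM against 1648 to 2508 TPM in the visceral ATs. In WL their median in ULB was 1722 TPM, within the 1548 to 2091 TPM of the visceral ATs, where IGFBP5 was still higher in ULB. The part of these cells in the result was not tested.

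IGF1R was lower in ULB in 9 of 9 comparisons, of which 4 were called. WG ULB ranged from 4.57 to 36.2 TPM (median 14.4), WG GOM from 8.98 to 57.3 (median 20.2) and WG MAD from 9.64 to 59.5 (median 25.2), so that the groups overlapped widely. The log2 fold changes of ULB over GOM were -0.95 ± 0.24 in NC (edgeR adjusted p = 0.00702), -0.60 ± 0.17 in WG (adjusted p = 0.0021) and -0.60 ± 0.20 in WL (adjusted p = 0.0308). WG ULB was also lower than WG MAD, by -0.65 ± 0.18 (adjusted p = 0.00177). In NC, RAD was lower than GOM by -0.83 ± 0.19 (adjusted p = 0.00223). With the libraries of a low protein-coding share left out, IGF1R differed by -0.10 between WL ULB and WL GOM (adjusted p = 0.794), by -1.49 between NC ULB and NC GOM (adjusted p = 0.0653) and by -1.27 between NC RAD and NC GOM (adjusted p = 0.164), none of these called. IGF2R had no call between ATs, with log2 fold changes of ULB over the visceral ATs of -0.05 to 0.53. RAD and ULB did not differ in IGF1R beyond their spread under any diet, with a difference in NC of -0.11 ± 0.31, in WG of -0.27 ± 0.18 and in WL of -0.10 ± 0.13.

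IGFBP4, a binding protein that mainly holds IGFs back until the protease PAPPA cuts it, was lower in ULB in 8 of 9 comparisons, of which 5 were called. WG ULB ranged from 35.7 to 141 TPM (median 72.2), below the medians of 120, 133 and 111 TPM in WG GOM, MAD and RAD. The log2 fold change of WL ULB was -0.81 ± 0.23 over MAD (edgeR adjusted p = 0.0158), -0.74 ± 0.21 over RAD (adjusted p = 0.0354) and -0.59 ± 0.20 over GOM (adjusted p = 0.0297). In WG it was -0.64 ± 0.12 over MAD (adjusted p = 1.16e-05) and -0.60 ± 0.12 over GOM (adjusted p = 2.91e-05). The last lay at the fold threshold, and IGFBP4 was at -0.55 (adjusted p = 5.21e-05) and no longer called without replicate 35 of WG GOM, as it was at -0.54 (adjusted p = 9.7e-05) without the libraries of a low protein-coding share. By DESeq2 the difference of WL ULB from WL GOM was -0.58 (adjusted p = 0.0151), also under the fold threshold. IGFBP2, which holds IGF2 more tightly than IGF1, was highest in GOM in WG and WL. It ranged from 40.2 to 111 TPM (median 61.8) in WL GOM and from 29.9 to 57.4 TPM (median 34.6) in WL ULB, with a log2 fold change of -0.95 ± 0.16 (edgeR adjusted p = 0.000104). WL MAD was lower than WL GOM by -1.03 ± 0.25 (adjusted p = 0.0115), and WG ULB lower than WG GOM by -0.63 ± 0.15 (adjusted p = 0.000326). For IGFBP2, the difference of WL MAD was -0.63 (adjusted p = 0.425) without the libraries of a low protein-coding share, and that of WG ULB was -0.58 (adjusted p = 0.00108), under the fold threshold. In NC no AT differed from another in IGFBP2 beyond the spread, with fold changes of 1.09 to 1.43.

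IGFBP6, which prefers IGF2, was lowest in GOM under each diet. The 5 NC ULB samples held 34.2, 47.8, 55.9, 137 and 187 TPM, and NC GOM ranged from 7.47 to 39.9 TPM (median 15.4). One NC ULB sample lay within the GOM range. The log2 fold change of NC ULB over NC GOM was 2.14 ± 0.41 (edgeR adjusted p = 0.00107), that of NC RAD over NC GOM 1.66 ± 0.40 (adjusted p = 0.00322) and that of NC ULB over NC MAD 1.2997 ± 0.39 (adjusted p = 0.0419). The last was 1.09 (adjusted p = 0.136) without replicate 2 and 0.92 (adjusted p = 0.216) without replicate 7 of NC ULB for IGFBP6, and 1.57 (adjusted p = 0.0667) without the libraries of a low protein-coding share. In WG, ULB exceeded GOM by 0.71 ± 0.21 (adjusted p = 0.00297), and RAD exceeded GOM by 0.58 ± 0.22 (adjusted p = 0.0291), just under the fold threshold. Without replicate 35 the difference of RAD in IGFBP6 was 0.76 (adjusted p = 0.00123) and called. In WL, RAD and ULB exceeded GOM by 0.97 ± 0.25 (adjusted p = 0.00696) and 0.84 ± 0.22 (adjusted p = 0.00663). Without the libraries of a low protein-coding share these were 0.45 (adjusted p = 0.491) and 0.17 (adjusted p = 0.643) for IGFBP6. IGFBP7 was lower in ULB in 9 of 9 comparisons, of which 1 was called, WL ULB against WL GOM with -0.61 ± 0.12 (adjusted p = 0.000558). In WL ULB, once the libraries of a low protein-coding share were left out, IGFBP7 was also called lower than in WL MAD, at -0.64 (adjusted p = 0.0124).

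The replicate number may name the pig, which the labels do not say. In WG, same-numbered samples of different ATs deviated alike from their group means, with median correlations of 0.582 to 0.649. With it as a block, some calls between ATs changed. In NC, IGF1 in ULB over GOM was 0.72 and not called (edgeR adjusted p = 0.233), while IGFBP5 in RAD below GOM (-0.69, adjusted p = 0.0478) and IGF1R in ULB below MAD (-1.01, adjusted p = 0.0299) were called. In WG, IGFBP6 in RAD over GOM was called (0.66, adjusted p = 9.05e-05), and ULB below GOM was under the fold threshold for IGFBP4 (-0.56, adjusted p = 1.68e-09) and IGFBP2 (-0.49, adjusted p = 1.46e-05). In WL, ULB below GOM was under the fold threshold for IGF1R (-0.53, adjusted p = 0.0319). IGFBP6 in WL RAD over WL MAD was 0.75 ± 0.30 (adjusted p = 0.115) without the block and 0.87 (adjusted p = 0.00429) with it, and WL ULB over WL MAD was called with it (0.79, adjusted p = 0.0398).

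**Figure D2:**
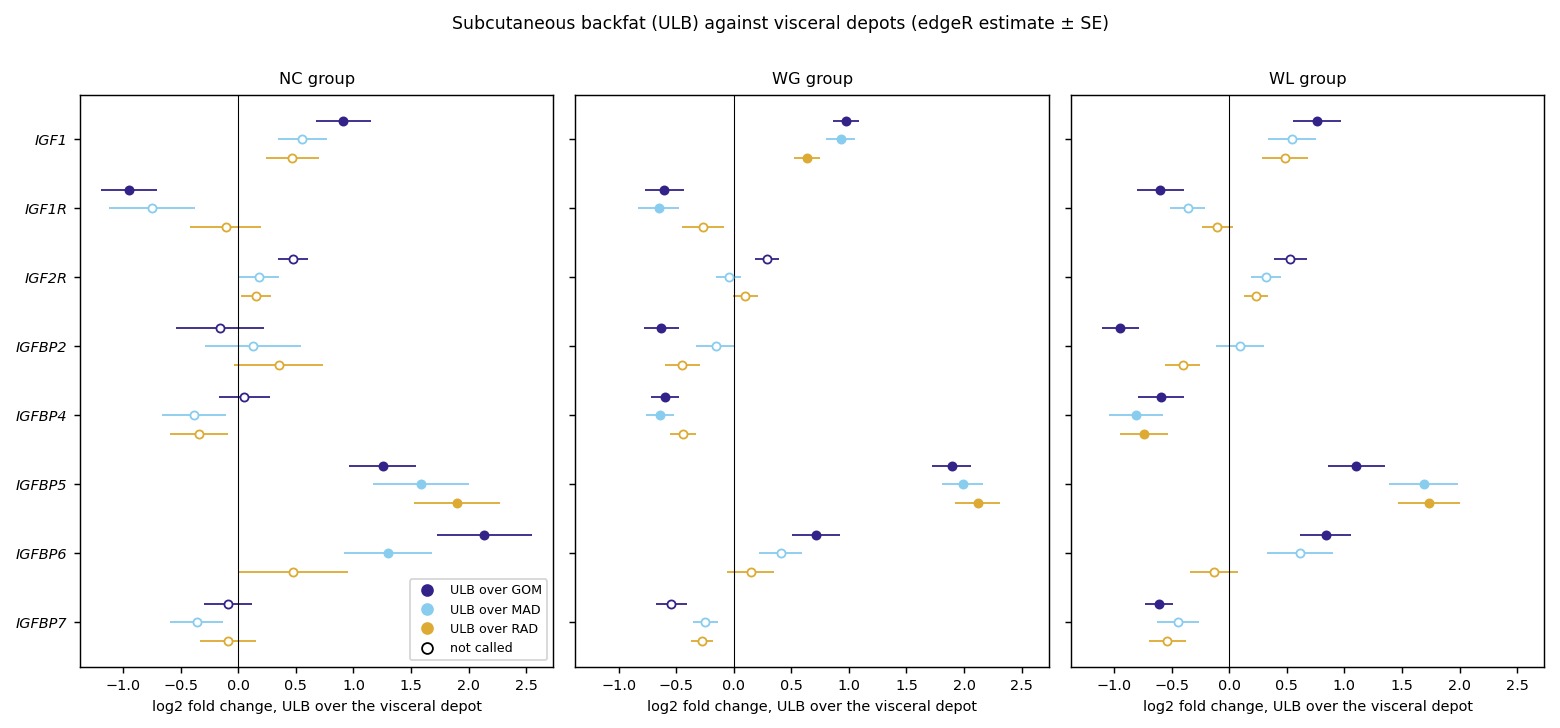
Log2 fold change (edgeR) of ULB over GOM, MAD and RAD for the 8 measured members under each diet, with bars of 1 SE and filled points for called differences. All 9 IGFBP5 points are filled and lie between 1.10 and 2.12, all 9 IGF1 points lie above 0, and all 9 IGF1R and IGFBP7 points lie below 0.

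Between diets, the share of member tests called was 28.1% from NC to WG (9 of 32), 21.9% from WG to WL (7 of 32) and 46.9% from NC to WL (15 of 32), where 14.3%, 9.32% and 27.8% of the tests of all genes were called. From NC to WG, 5 of 8 members were called in GOM (26.7% of all genes), 3 in MAD (10.7%) and 1 in RAD (16.7%). In ULB edgeR called 0 members (2.38%), with 1 at an unadjusted p under 0.05 and 0 by DESeq2. From WG to WL, 1 was called in GOM (5.26%), 2 in RAD (6.37%), 2 in MAD (17.4%) and 2 in ULB (8.12%). From NC to WL, 6 were called in GOM (36.1%), 4 in RAD (26.7%), 4 in MAD (33.1%) and 1 in ULB (14.8%). Comparisons that share a group, such as NC to WG and NC to WL, are not independent. The counts were 2, 5 and 8 from NC to WG, WG to WL and NC to WL without the libraries of a low protein-coding share, which left 2 NC GOM and 4 WL GOM samples.

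IGF2R was lower in WL than in NC in each AT, and it was the member called in 4 of 4 ATs from NC to WL. The share of all genes called in 4 of 4 ATs was not computed. The ATs of a diet were cut from the same carcasses, so these calls are not independent. IGF2R ranged from 22.6 to 28.6 TPM (median 26.2) in NC GOM and from 10.2 to 33.1 TPM (median 18.1) in WL GOM. In RAD it ranged from 25.4 to 44.8 TPM (median 31.7) in NC, from 17.03 to 59.9 (median 32.5) in WG and from 15.5 to 30.0 (median 21.6) in WL. The NC ULB samples held 27.98, 31.6, 37.2, 37.6 and 56.8 TPM, and the WL ULB samples 17.3 to 39.01 TPM (median 26.2). The WL median lay below the lowest NC sample in GOM, RAD and ULB, while the ranges of NC and WL overlapped in each AT. From NC to WL it changed by -0.82 ± 0.14 in GOM (edgeR adjusted p = 5.5e-05), -0.84 ± 0.10 in RAD (adjusted p = 1.98e-06), -0.92 ± 0.15 in MAD (adjusted p = 6.76e-05) and -0.77 ± 0.14 in ULB (adjusted p = 0.00176), all called. From WG to WL it fell in GOM (-0.76 ± 0.17, adjusted p = 0.00241), MAD (-0.87 ± 0.16, adjusted p = 9.34e-05) and RAD (-0.63 ± 0.16, adjusted p = 0.00585), and in ULB the change was -0.49 ± 0.16 (adjusted p = 0.0286), under the fold threshold. From NC to WG the changes were -0.07 to -0.27, with no call. Without the libraries of a low protein-coding share, IGF2R from NC to WL in GOM was at -0.56 (adjusted p = 0.0359), also under the fold threshold, and the other 3 ATs kept their call. It was then, from WG to WL, at -0.69 in GOM (adjusted p = 0.0981) and -0.63 in MAD (adjusted p = 0.131), and neither was called.

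IGF1R fell from NC to WG in GOM by -0.83 ± 0.22 (edgeR adjusted p = 0.00296) and in MAD by -0.61 ± 0.22 (adjusted p = 0.048), and from NC to WL in the same ATs by -0.85 ± 0.20 (adjusted p = 0.00107) and -0.89 ± 0.25 (adjusted p = 0.00627). NC GOM ranged from 27.6 to 57.3 TPM (median 34.8), WG GOM from 8.98 to 57.3 (median 20.2) and WL GOM from 14.9 to 54.4 (median 22.2). The WG and WL medians thus lay below the lowest NC sample, although the highest samples reached a like level in all 3 diets. From WG to WL the changes of IGF1R were -0.31 to -0.0018, with no call. The call in MAD from NC to WG was lost without a filter on low genes, where IGF1R was at -0.58 (adjusted p = 0.057). Leaving out the libraries of a low protein-coding share, IGF1R from NC to WG was -1.07 in GOM (adjusted p = 0.13) and -0.53 in MAD (adjusted p = 0.158), and from NC to WL in MAD -0.77 (adjusted p = 0.197), none of them called. Within groups, the Spearman correlation of IGF1R with the protein-coding share of a library was 0.411 and that with its total count 0.345 (236 samples, group means removed), and those of IGF2R were 0.414 and 0.235. For the other members, with share and count in this order, they were 0.317 and 0.333 for IGF1 and 0.238 and 0.305 for IGFBP5. They were -0.275 and -0.308 for IGFBP2, and -0.143 and -0.191 for IGFBP4. For IGFBP6 they were -0.217 and -0.387, and for IGFBP7 -0.170 and -0.257. The part of library quality in the diet changes of the members was not tested.

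IGFBP2 was higher in WG and in WL than in NC in the 3 visceral ATs. NC RAD ranged from 6.18 to 21.3 TPM (median 10.3), WG RAD from 9.24 to 92.8 (median 36.2) and WL RAD from 27.3 to 84.5 (median 43.4), so that all WL RAD samples lay above all NC RAD samples. NC GOM ranged from 10.5 to 32.1 TPM (median 14.6) and WL GOM from 40.2 to 111 TPM (median 61.8), also without overlap. The share of all genes without overlap between these groups was not computed. From NC to WG it rose by 1.04 ± 0.28 in GOM (edgeR adjusted p = 0.00291), 0.82 ± 0.28 in MAD (adjusted p = 0.0334) and 1.35 ± 0.26 in RAD (adjusted p = 5.84e-05). From NC to WL it rose by 1.67 ± 0.22 in GOM (adjusted p = 2.28e-06), 0.89 ± 0.28 in MAD (adjusted p = 0.0138) and 1.64 ± 0.23 in RAD (adjusted p = 1.5e-05). In ULB the changes were 0.56 ± 0.33 (adjusted p = 0.448) and 0.86 ± 0.32 (adjusted p = 0.0659). The NC ULB samples of IGFBP2 held 5.44, 7.14, 10.4, 28.3 and 31.2 TPM, and without the sample at 28.3 TPM, replicate 2, the change from NC to WL in ULB was 1.20 (adjusted p = 0.0142) and without that at 31.2 TPM, replicate 7, it was 1.18 (adjusted p = 0.0158). From WG to WL the changes were 0.07 to 0.62, with no call. In GOM the 0.62 ± 0.22 (adjusted p = 0.0663) became 0.67 (adjusted p = 0.0275) and was called without replicate 35 of WG GOM. Without the libraries of a low protein-coding share, IGFBP2 from NC to WG was 1.28 in GOM (adjusted p = 0.141) and 0.69 in MAD (adjusted p = 0.126), and from NC to WL in MAD 0.83 (adjusted p = 0.134), with no call.

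IGFBP4 had its highest mean in WL in each AT. In RAD it ranged from 38.7 to 191 TPM (median 80.7) in NC, from 63.2 to 198 (median 111) in WG and from 128 to 316 (median 185) in WL. In GOM the NC samples reached 32.996 to 94.7 TPM (median 63.2) and the WL samples 119 to 347 TPM (median 173), without overlap. How many of all genes had no overlap there was not computed. From NC to WL the rise was 1.24 ± 0.19 in GOM (edgeR adjusted p = 1.74e-05), 1.01 ± 0.24 in MAD (adjusted p = 0.00183) and 0.99 ± 0.21 in RAD (adjusted p = 0.000717). In ULB, with 0.59 ± 0.24 (adjusted p = 0.0959), it did not pass. From WG to WL it rose in MAD by 0.66 ± 0.17 (adjusted p = 0.00309) and in RAD by 0.79 ± 0.15 (adjusted p = 0.000216). From NC to WG it was called in GOM, with 0.76 ± 0.21 (adjusted p = 0.0038). Without the libraries of a low protein-coding share, IGFBP4 from NC to WL was 0.92 in MAD (adjusted p = 0.059) and 0.61 in RAD (adjusted p = 0.0722), from WG to WL in MAD 0.69 (adjusted p = 0.148) and from NC to WG in GOM 1.10 (adjusted p = 0.0841), none of them called.

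IGFBP6 rose from NC to WG in GOM by 1.71 ± 0.41 (edgeR adjusted p = 0.00111), from a median of 15.4 to 68.0 TPM, and in MAD by 1.15 ± 0.27 (adjusted p = 0.00264), from 31.8 to 82.3 TPM. In GOM it stayed above NC in WL (1.26 ± 0.30, adjusted p = 0.00125), with WL samples of 29.1 to 106 TPM and NC samples of 7.47 to 39.9 TPM. The change of IGFBP6 from NC to WG in GOM was 2.49 (adjusted p = 0.056) and not called when the libraries of a low protein-coding share were left out. In RAD and ULB no diet change of IGFBP6 was called, with log2 fold changes of -0.31 to 0.61. IGFBP7 rose in GOM from NC to WG by 0.81 ± 0.27 (adjusted p = 0.016) and from NC to WL by 0.72 ± 0.13 (adjusted p = 6.86e-05), and in RAD from NC to WL by 0.65 ± 0.19 (adjusted p = 0.0097). All WL GOM samples (458 to 854 TPM) lay above all NC GOM samples (246 to 444 TPM). This gap is narrow, and TPM also carries the protein-coding share, which differed between these groups. The share of all genes separated in this way was not computed. Without replicate 35 of WG GOM, IGFBP7 from NC to WG in GOM was at 0.61 (adjusted p = 0.00115), and by DESeq2 it was at 0.56 (adjusted p = 0.000859), under the fold threshold. All 3 IGFBP7 calls were lost without the libraries of a low protein-coding share, where it was at 0.33 (adjusted p = 0.484) from NC to WG in GOM, 0.41 (adjusted p = 0.183) from NC to WL in GOM and 0.33 (adjusted p = 0.407) from NC to WL in RAD. IGF1 and IGFBP5, the pair that was higher in ULB, were the members with a diet call in ULB from WG to WL. IGF1 fell by -0.61 ± 0.19 (edgeR adjusted p = 0.0178), from a median of 71.4 to 47.6 TPM, and IGFBP5 by -0.96 ± 0.28 (adjusted p = 0.0112), from 447 to 213 TPM. From WG to WL in RAD, IGF1 changed by -0.48 ± 0.16 (adjusted p = 0.0425), under the fold threshold, and by -0.64 (adjusted p = 0.0146) without the libraries of a low protein-coding share. From NC to WL neither IGF1 (-0.11 to 0.06) nor IGFBP5 (-0.54 to -0.26) was called in any AT.

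**Figure D3:**
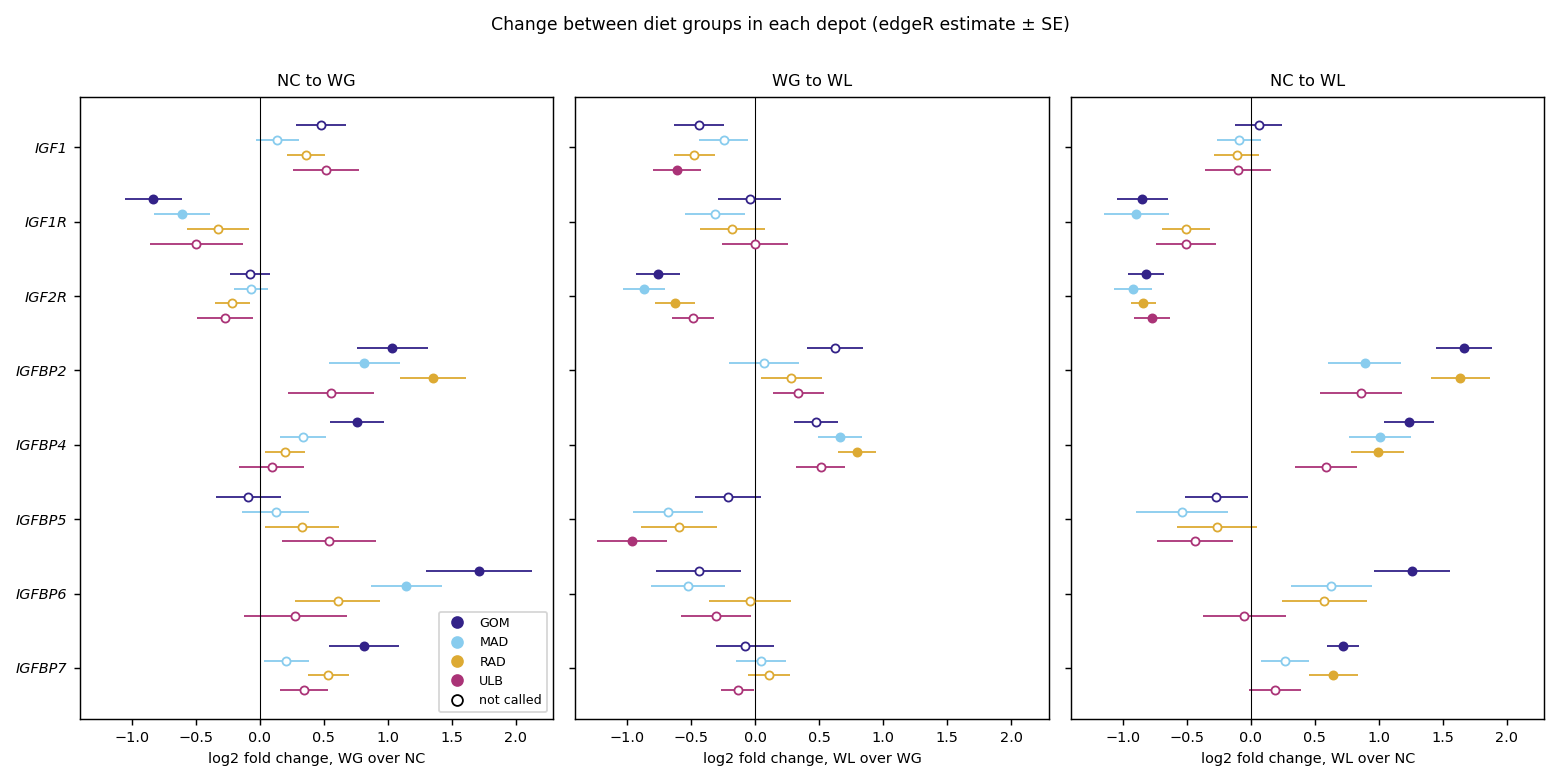
Log2 fold change (edgeR) of the 8 measured members from NC to WG, from WG to WL and from NC to WL in each AT, with bars of 1 SE and filled points for called differences. IGF2R points from NC to WL are filled and below 0 in 4 of 4 ATs, and IGFBP2 and IGFBP4 points from NC to WL are filled and above 0 in GOM, MAD and RAD.

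Whether a diet change differed between ATs was tested as an interaction in 1 fit over the 12 groups, with 18 contrasts per gene. This fit had no term for the pig and took the samples as independent, although the ATs of a diet were cut from the same carcasses. Of 144 member tests edgeR called 0 at an adjusted p below 0.05, and 8 had an unadjusted p under 0.05. No other tool was run on the interaction. Of all 15068 genes, the NC to WG change differed in 10% for GOM with MAD, 3.57% for GOM with RAD, 3.88% for GOM with ULB, 1.21% for MAD with RAD, 0.883% for MAD with ULB and 0.372% for RAD with ULB. In the same order of AT pairs, the shares were 2.75%, 0.0531%, 0.995%, 3.24%, 6.96% and 0.153% for WG to WL, and 7.86%, 0.0995%, 1.13%, 3.64%, 4.35% and 0.292% for NC to WL. The smallest adjusted p, 0.0813, was that of IGFBP6, whose change from NC to WG was lower in ULB than in GOM by -1.46 ± 0.52. That a diet call of a member was made in 1 AT and not in another is therefore not shown to be a difference between the ATs. With a term for the libraries of a low protein-coding share 1 contrast was called, IGFBP7 from NC to WG in MAD against GOM, and without replicate 5 of NC ULB 1 was called, IGFBP6 from NC to WG in ULB against GOM.

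Genes around the axis were read from lists of proteases, other carriers, receptor partners and relatives. Over the 30 comparisons, 13.6% of the 416133 tests of all genes were called. PAPPA and PAPPA2 are proteases that free IGFs from binding proteins, though not from the same set of them, and STC2 is an inhibitor of both. Of 162 tests of 6 proteases and inhibitors, 24 were called higher and 17 lower (25.3%). PAPPA was 5.45 ± 1.96 TPM (SD, n = 9) in NC GOM and 1.41 ± 0.52 TPM (n = 5) in NC ULB, and ULB was lower than GOM by -2.01 ± 0.31 in NC, -1.68 ± 0.17 in WG and -1.297 ± 0.25 in WL (edgeR adjusted p = 0.000146, 4.17e-14 and 0.000391). PAPPA2 went the other way, at 0.27 ± 0.13 TPM in NC GOM and 1.89 ± 0.67 TPM in NC ULB, with ULB over GOM by 2.76 ± 0.31, 1.95 ± 0.17 and 2.15 ± 0.27. It passed the filter on low values in the 3 ULB groups only and was tested in the 12 comparisons with ULB. These differences and its 8 calls, which are in the share above, therefore carry no support of their own. STC2 rose from NC to WG in GOM by 1.33 ± 0.25, in MAD by 1.51 ± 0.26 and in RAD by 0.72 ± 0.23.

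Among other carriers, 17 of 60 tests were called higher and 2 lower (31.7%). IGFALS, which holds IGFs in a large complex with IGFBP3 or IGFBP5 in blood, rose from WG to WL by 1.15 ± 0.31 in GOM, 1.46 ± 0.23 in RAD, 1.41 ± 0.26 in MAD and 1.07 ± 0.31 in ULB, from group means of 1.58 to 2.10 TPM. KAZALD1, a relative of the binding proteins, was higher in ULB than in GOM by 2.15 ± 0.25 in NC, 1.03 ± 0.12 in WG and 0.78 ± 0.16 in WL. IGFBP1 and IGFBPL1 did not reach 0.5 TPM in 80% of the samples of any group. The single measured IGF2 mRNA-binding protein, IGF2BP2, fell from NC to WL by -1.51 ± 0.23 in GOM, -1.04 ± 0.24 in RAD, -1.59 ± 0.30 in MAD and -1.16 ± 0.21 in ULB.

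Of 150 tests of genes of growth hormone input, 8 were called higher and 2 lower (6.67%). GHR, the growth hormone receptor, had group means of 401 to 784 TPM and was higher in ULB than in GOM in NC (0.60 ± 0.16) and WL (0.76 ± 0.11). STAT5A, a transcription factor downstream of it, was higher in NC MAD and NC RAD than in NC GOM by 0.64 ± 0.21 and 0.69 ± 0.21, and CISH, a feedback inhibitor, was lower in WG ULB than in WG MAD by -0.61 ± 0.24. Of 180 tests of proteins that act next to the receptors, 16 were called higher and 14 lower (16.7%). GRB14, an adaptor that inhibits insulin receptor signalling, was higher in MAD than in GOM by 2.13 ± 0.46 in NC, 2.37 ± 0.17 in WG and 1.93 ± 0.30 in WL. It passed the filter on low values in 11 of 12 groups. Its comparisons with the remaining group were tested only through the other group and carry no support of their own. The docking proteins IRS1 and IRS2 were higher in WG ULB than in WG GOM by 0.66 ± 0.16 and 0.68 ± 0.14. IRS1 also fell from NC to WL in MAD (-1.10 ± 0.23) and RAD (-0.95 ± 0.16).

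The CCN family, secreted matrix proteins that carry a domain like that of the binding proteins, had 28 tests called higher and 25 lower of 152 (34.9%). CCN1 rose from NC to WL by 0.92 ± 0.29 in GOM, 1.33 ± 0.29 in RAD, 1.61 ± 0.26 in MAD and 1.02 ± 0.24 in ULB. CCN4 was lower in ULB than in GOM by -3.58 ± 0.56 in NC, -3.62 ± 0.25 in WG and -3.13 ± 0.43 in WL. It passed the filter on low values in the 9 visceral groups only, so that its 14 calls, which are in the share above, carry no support of their own. CCN3 was likewise lower in ULB than in GOM by -1.74 ± 0.25, -1.13 ± 0.14 and -1.75 ± 0.28. GOM is also the AT with the mesothelial markers, whose part in these differences was not tested.

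The A-B index of 20-kb bins places chromatin in the active compartment A when positive and the inactive compartment B when negative. The bin at the gene start lay in A in 240 of 240 samples for IGF2, IGF1R, IGF2R, IGFBP2, IGFBP4, IGFBP5, IGFBP6 and IGFBP7. IGF1 was the member whose start bin lay mostly in B, with a median of -0.785 and 25 of 240 samples above 0, and IGFBP3 lay near the border with 104 of 240. The IGF1 samples above 0 were 9 of 40 in WG RAD, 11 of 39 in WG ULB and 5 of 10 in WL ULB, with 0 in the other 9 groups. Differences were tested with limma over 113298 bins, and a bin was called at an adjusted p below 0.05. Between ATs, members called in NC were 3 of 10 between MAD and GOM (15.1% of all bins), 4 between GOM and RAD (31.6%), 1 between GOM and ULB (23.5%) and 1 between MAD and ULB (12.9%). In WG they were 4 between MAD and GOM (45.8%), 8 between GOM and RAD (56.8%), 7 between GOM and ULB (66.4%), 1 between MAD and RAD (18.4%), 5 between MAD and ULB (56.4%) and 6 between RAD and ULB (58.3%). In WL they were 2 between MAD and GOM (23.7%), 2 between GOM and RAD (31.7%), 4 between GOM and ULB (29.3%), 3 between MAD and ULB (14.7%) and 2 between RAD and ULB (10.7%). Limma called 0 members between MAD and RAD in NC (10% of all bins, 1 member at an unadjusted p under 0.05) and WL (1.95%, 1 member), with 0 also after quantile normalization of the index. It called 0 between RAD and ULB in NC (18.4%, 2 members at an unadjusted p under 0.05), against 2 after quantile normalization. In WG the share of members called was above that of all bins for GOM with RAD, GOM with ULB and RAD with ULB, and below it for the other 3 pairs.

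In WG, the IGF1 bin ranged from -2.04 to -0.34 in GOM (median -1.02), from -1.69 to -0.26 in MAD (median -0.85), from -1.34 to 0.59 in RAD (median -0.46) and from -1.28 to 0.95 in ULB (median -0.22). The groups overlapped, and both GOM and MAD stayed below 0. WG ULB was higher than WG GOM by 0.78 ± 0.10 (SE; limma adjusted p = 2.2e-10) and than WG MAD by 0.61 ± 0.10 (adjusted p = 4.93e-07), and WG RAD was higher than WG GOM by 0.58 ± 0.10 (adjusted p = 1.42e-06). In WL, ULB was higher than GOM by 0.88 ± 0.26 (adjusted p = 0.0123) and than MAD by 0.93 ± 0.20 (adjusted p = 0.00281). In expression, IGF1 was likewise called higher in WG ULB than in WG GOM and WG MAD and in WL ULB than in WL GOM, but WL ULB over WL MAD (0.55, adjusted p = 0.0676 by edgeR) and WG RAD over WG GOM (0.35, adjusted p = 0.00973) were not called. None of the 12 diet comparisons of the IGF1 bin was called.

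The IGFBP5 bin differed in the other direction from its expression. It was lower in WG ULB, with 2.50 ± 0.48 (SD, n = 39), than in WG GOM, with 3.13 ± 0.40 (n = 46), a difference of -0.63 ± 0.10 (limma adjusted p = 1.54e-08), while its expression was higher in WG ULB. Both groups lay within compartment A. The IGFBP7 bin was lower in WG ULB, with 4.03 ± 0.80, than in WG GOM (-1.08 ± 0.15), WG MAD (-0.95 ± 0.17) and WG RAD (-0.70 ± 0.20), and in WL ULB than in WL GOM (-0.97 ± 0.26), WL MAD (-1.15 ± 0.21) and WL RAD (-0.98 ± 0.21). The IGFBP2 bin was lower in WG ULB than in WG GOM by -0.75 ± 0.10 (adjusted p = 5.44e-11), and the IGF2 bin was lower in WL MAD than in WL GOM by -0.71 ± 0.15 (adjusted p = 0.00152) and in NC RAD than in NC GOM by -0.81 ± 0.18 (adjusted p = 0.00156). The IGFBP3 bin was higher in WG ULB than in WG MAD by 0.99 ± 0.11 (adjusted p = 6.37e-13) and than in WG RAD by 0.92 ± 0.11 (adjusted p = 6.45e-11). In NC the difference of IGFBP3 from MAD, 0.88 ± 0.28 (adjusted p = 0.0426), missed the threshold without replicate 2, 5, 7 or 9 of NC ULB (0.80 to 0.89, adjusted p = 0.0727 to 0.0979) and with the replicate number as a block (1.12, adjusted p = 0.105).

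**Figure D4:**
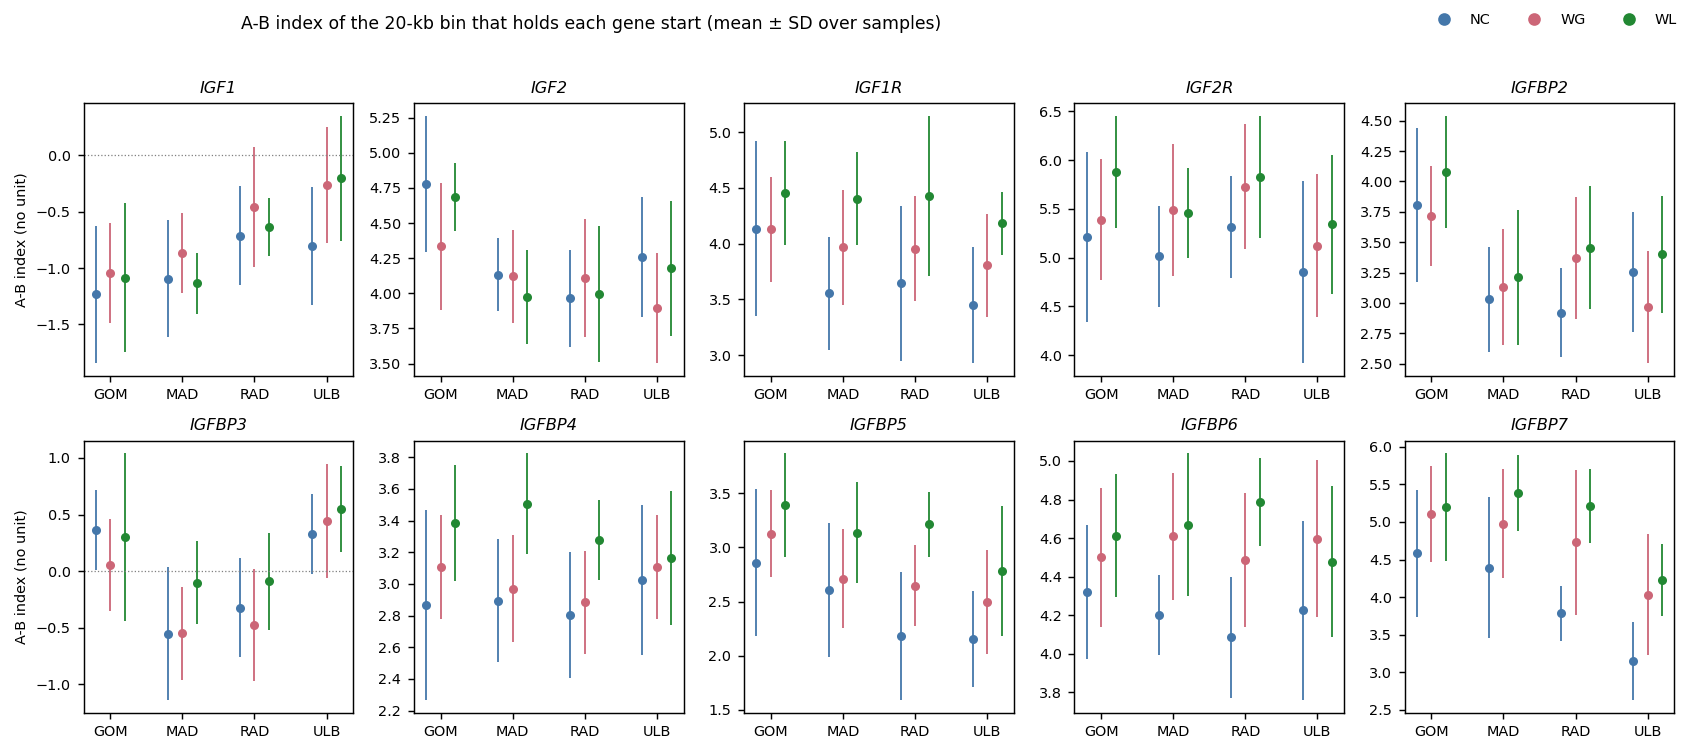
Mean A-B index (no unit; each panel has its own scale) of the 20-kb bin at the start of the 10 genes (panels) by AT and diet (colours), with bars of 1 SD over samples and a dotted line at 0, above which a bin lies in compartment A. The IGF1 means lie below 0 in all 12 groups and are closest to 0 in WL ULB (-0.204) and WG ULB (-0.260), the IGFBP3 means lie on both sides of 0, and the means of the other 8 genes lie above 0.

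Between diets, 21 of 120 member tests of the index were called, all higher after the diet change. From NC to WL, members called were 6 in RAD (33.3%), 4 in MAD (23% of all bins) and 2 in ULB (15.1%), from NC to WG 1 in MAD (20.5%) and 4 in RAD (20.8%), and from WG to WL 2 in RAD (17.5%), 1 in MAD (4.91%) and 1 in ULB (33.4%). In GOM limma called 0 members from NC to WG (11.6%), WG to WL (18%) and NC to WL (14.5%), with 3, 4 and 3 at an unadjusted p under 0.05 and 1, 0 and 0 after quantile normalization, and in ULB it called 0 from NC to WG (10.7%, 2 at an unadjusted p under 0.05, 0 after quantile normalization). The index of all bins also moved, and in RAD from NC to WL the median bin rose by 0.285, with 30.7% of bins called higher and 2.59% lower. After quantile normalization of the index this split was 13.4% and 13.4%, and 7 member calls were made, 4 higher and 3 lower. Those higher were IGFBP7 (1.07) and IGFBP5 (0.67) in RAD from NC to WL, IGFBP5 (0.43) in RAD from WG to WL and IGFBP4 (0.46) in MAD from WG to WL. Those lower were IGF2 in GOM (-0.65) and MAD (-0.39) from NC to WG and in MAD from NC to WL (-0.59).

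For the 8 members with both readouts, 65 of 240 comparisons were called in expression and 54 in the index, and 18 in both, of which 16 had the same sign. The exceptions were IGFBP5 in WG ULB over WG GOM (1.89 in log2 expression and -0.63 in the index) and IGF1R in MAD from NC to WL (-0.89 and 0.85). With the quantile-normalized index 15 were called in both, 11 of the same sign. Of the 9 diet comparisons among the 18, 2 remained, IGFBP4 in MAD from WG to WL and IGFBP7 in RAD from NC to WL, and the IGF1R exception was lost (0.48, limma adjusted p = 0.114). All 9 AT comparisons remained, and 4 were added, of which IGF1R in NC ULB over NC GOM had the same sign in both readouts, while IGFBP5 in NC and WL ULB over GOM and IGFBP4 in WG ULB over WG MAD had opposite signs. The comparisons share groups and are given as a count. All 21 main index calls between diets were higher, so there the same sign meant only that expression was higher too. The share of all genes called in both readouts, or with the same sign, was not computed. These counts are therefore not a result about the members.

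**Figure D5:**
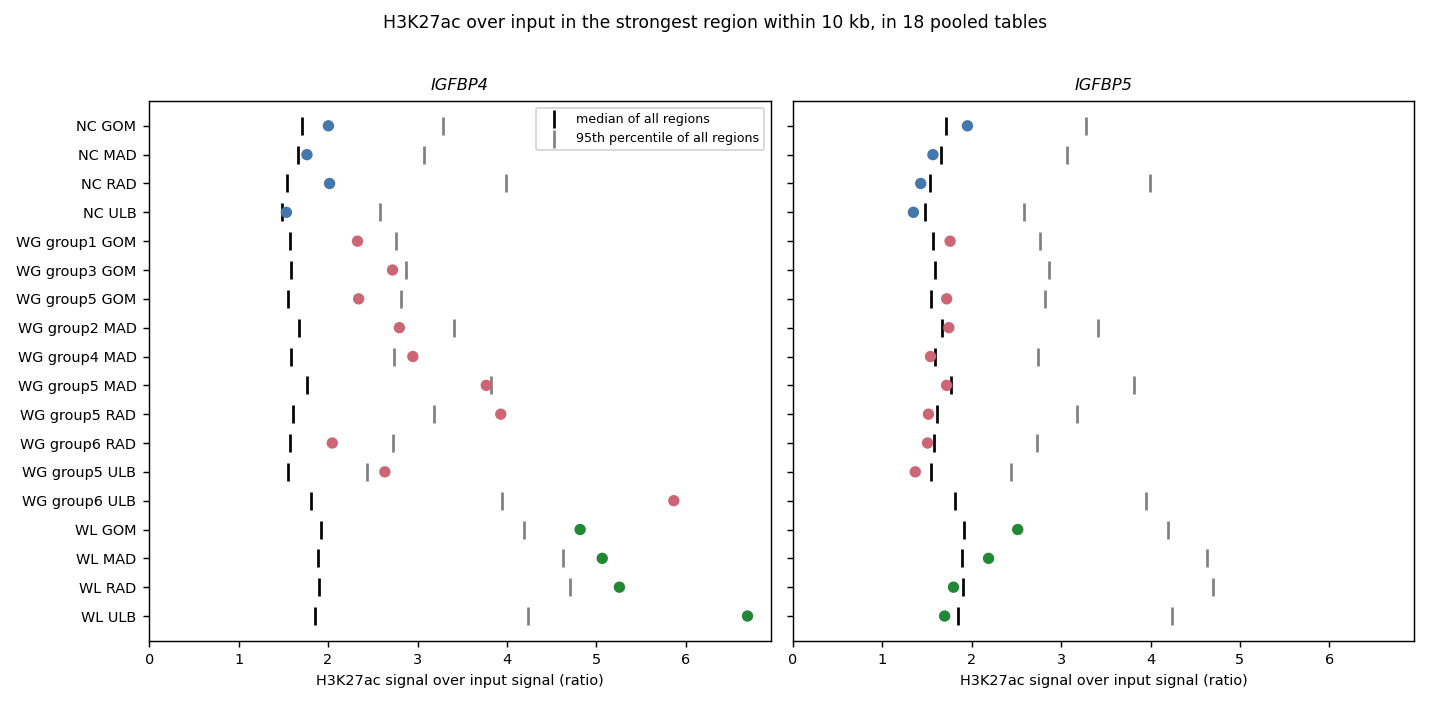
Ratio of H3K27ac to input signal of the region with the highest H3K27ac signal within 10 kb of IGFBP4 (left) and IGFBP5 (right), with 1 point for each of the 18 pooled tables that has a region, coloured by diet, and ticks at the median and the 95th percentile of all regions of that table. The 4 WL points of IGFBP4 (4.82 to 6.69) lie above its 4 NC points (1.53 to 2.02) and its WG points span 2.05 to 5.87, while the 16 IGFBP5 points span 1.35 to 2.51.

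H3K27ac regions stitched by the authors were read for the same genes. Each of the 18 tables was made from 1 to 11 H3K27ac libraries of an AT, so that differences between tables have no replicate check. The 10 WG tables are of numbered subgroups, and the paper describes WG subgroups formed by estimated cell composition. The WG ratios thus come from subsets of samples, while the NC and WL tables are not split in this way. A region lay within 10 kb of IGF1, IGF1R, IGF2R, IGFBP2, IGFBP4 and IGFBP7 in 18 of 18 tables, of IGF2 and IGFBP6 in 17, of IGFBP5 in 16 and of IGFBP3 in 6. Between 65.2% and 85.6% of all 18708 genes had such a region in a table. Super-enhancers, regions past the inflection of the ranked signal, were among them in 13 tables for IGF1, 12 for IGF1R, 11 for IGFBP4 and IGFBP6 and 0 for IGFBP3, where 5.72% to 27.8% of all genes had one in a table. Without the flank of 10 kb the 11 tables of IGFBP6 were 5, and the other members kept their number. The ratio of H3K27ac over input was read from the region with the highest H3K27ac signal. Its highest value was that of IGFBP4 in WG and WL and that of IGFBP6 in NC. For IGFBP4 in NC it was 2.004 in GOM, 2.02 in RAD, 1.76 in MAD and 1.53 in ULB. In WL it was 4.82 in GOM, 5.26 in RAD, 5.07 in MAD and 6.69 in ULB, above all 4 NC tables. These lay at the 56.1 to 75.8 percentile of all regions of their table in NC, 82.2 to 99.3 in WG and 96.5 to 99.6 in WL. The region was also shorter in WL (18800 to 58400 bases) than in NC (61400 to 181600 bases), and the median ratio of a table was 1.85 to 1.92 in WL and 1.48 to 1.71 in NC. The region held the IGFBP4 start site, next to the promoter shown above, in 4 of 4 NC, 7 of 10 WG and 4 of 4 WL tables. IGFBP6 had ratios of 1.70 to 2.61 in NC, 1.94 to 4.86 in WG and 4.75 to 5.49 in the 3 WL tables with a region, and that region held its start site in 1 of these 3. The WG medians were 2.85 for IGFBP6 and 2.76 for IGFBP4. In all, the WL ratios lay wholly above the NC ratios for 6 of 10 members. Beside IGFBP4 and IGFBP6 these were IGF2 (2.55 to 4.14 against 1.26 to 1.73), IGF2R (2.65 to 2.87 against 1.37 to 1.63), IGF1R (2.01 to 2.64 against 1.46 to 1.96) and IGFBP3, with 2 tables of each diet (1.66 to 1.97 against 1.20 to 1.40). The median ratio of all regions was likewise higher in each WL table than in each NC table. The share of all genes with such a separation was not computed, so the count of 6 of 10 is not a result about these members. For IGFBP5 the ratios were 1.35 to 1.95 in NC and 1.70 to 2.51 in WL, with 1.35 in NC ULB and 1.95 in NC GOM. In 13 of the 16 tables with a region for both genes, IGFBP5 and IGFBP2 shared the same stitched region.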

How the data were processed

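The RNA-seq, Hi-C and H3K27ac data were made by the authors. Reads were quantified with kallisto 0.43.0 and summed to genes with tximport, which gave the deposited estimated counts and TPM values for Sscrofa11.1. Hi-C reads were turned by the authors into a deposited score, the A-B index, for 20-kb bins after correction between samples. H3K27ac reads were mapped with BWA 0.7.15 and SAMtools 1.3.1, peaks were called with SICER, and the authors stitched them with ROSE, whose deposited tables give the signal of H3K27ac and of input, a rank score and a super-enhancer flag.

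Samples were grouped by the labels, and 9 expression columns and 9 A-B index columns that matched no sample were not used. The members and gene lists were chosen with earlier results of these data known. Estimated counts were rounded to whole numbers. Genes at 0.5 TPM or more in 80% of samples or over in any group compared were kept, and edgeR 4.0.16 (quasi-likelihood test, TMM scaling, 30 comparisons of 2 groups; R 4.3.3) was run over all kept genes, with a further fit over 12 groups for 18 interactions of AT and diet. The A-B index was tested with limma 3.58.1 over 113298 bins. H3K27ac tables have no replicates and got no test. Alternatives were DESeq2 1.42.0, no filter, the replicate number as a block, a term for or removal of libraries under 88% protein-coding share, leaving out NC ULB samples in turn, quantile normalization or all bins of a gene for the index, and other flanks than 10 kb. Leaving out replicate 35 of WG GOM was chosen after seeing the data. Summaries used Python 3.11.15, pandas 2.3.3, numpy 2.4.6 and scipy 1.17.1. The scripts were tested on simulated data.

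All members are named. Of each pathway list, up to 3 genes with the most calls over the 30 comparisons are named, ties by symbol, and for each member the 3 genes with the highest Spearman correlation of TPM. Whether samples of the same replicate number deviate together was checked by the correlation of their deviations from group means. Every pair exceeded 0.1 between WG MAD and WG ULB (30 pairs), between WL MAD and WL RAD (10 pairs), and, for the index, between NC GOM and NC ULB (4 pairs). Per the study's methods the ATs were cut from each carcass, but no source used here says that a number names a pig, so unblocked fits were kept as the main ones. In the other WG pairs of ATs, 30 to 37 of 31 to 39 pairs exceeded 0.1. Over all WG pairs of ATs in expression, the median correlation of same-numbered samples was 0.582 to 0.649. That of samples with other numbers was -0.161 to -0.054. In WG, samples of the same number thus deviated alike, which the main fits of AT pairs did not use. Total counts ranged from 3337098 to 22939420 per sample.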

Additional observations from a re-analysis of the deposited data

Results flagged for a closer look

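In groups of 4 to 10 samples, 10 of 108 sets of values held a sample far from the rest. Normally distributed values would give about 1 in 20. The scan used TPM without a log, and every flagged TPM value was the highest of its set, so that this rate is no benchmark for TPM. IGFBP4 stood at 94.07 TPM in replicate 7 of NC ULB, with the other 4 samples at 61.6 to 65.3 TPM. IGFBP4 was also far above the others in replicate 3 of WL GOM (347.4 TPM, others 119 to 213) and in replicate 3 of WL ULB (225.6 TPM, others 71.9 to 152). IGFBP5 stood at 204.7 TPM in replicate 3 of WL MAD (others 33.5 to 97.5). IGF1 stood at 58.88 TPM in replicate 4 of WL GOM (others 19.2 to 38.3), and IGF1R at 31.3 TPM in replicate 2 of WL RAD (others 12.6 to 20.9). IGFBP2 stood at 84.55 TPM in replicate 10 of WL RAD (others 27.3 to 52.8) and at 57.4 TPM in replicate 9 of WL ULB (others 29.9 to 36.9). In the A-B index, replicate 9 of WL GOM was far from the others in 2 start bins, that of IGFBP3 (-1.531, others -0.19 to 1.04) and that of IGFBP5 (4.507, others 2.88 to 3.75).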

How the results depend on the processing

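Without the libraries of a low protein-coding share, member calls between ATs in NC went from 9 to 2, from NC to WG from 9 to 2 and from NC to WL from 15 to 8, with fewer samples in each. With the replicate number as a block, calls from NC to WG went from 9 to 1, IGFBP2 in RAD, and start bins called between diets from 21 to 10. The pigs sampled under each diet were different animals, so a number shared between diets cannot name the same pig. Between diets the block therefore paired different pigs, and it is no check of animal pairing there. Same-numbered NC and WG samples of an AT had median correlations of -0.257 to 0.121 in expression. The cause of the lost calls was not tested. The block gave 10, 11 and 14 calls between ATs in NC, WG and WL, 5 from WG to WL, 14 from NC to WL, 141 pathway calls (160 without it) and 49 start bins between ATs (53). Start bins called between diets were 39 with the mean of all bins of a gene and 7 after quantile normalization. Interaction calls went from 0 to 1 with a term for the low share. Counting only super-enhancers, 74 of 180 pairs of gene and H3K27ac table had a region, against 164. Leaving out 1 NC ULB sample at a time gave 8 to 9 calls between ATs in NC, 9 from NC to WG, 15 to 17 from NC to WL, 0 to 1 interactions, 52 to 54 start bins between ATs and 20 to 21 between diets. Other counts of calls stayed within 1.5 times their value. Among the H3K27ac tables, those with a super-enhancer at IGFBP6 went from 11 to 5 without the flank and those with a region at IGFBP3 from 6 to 10 with a flank of 50 kb. No member's fold change that was called in the main or the alternative run had its sign reversed. Sign changes of differences called in neither were not counted. NC ULB rests on 5 samples, which limits its comparisons.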

Other observations

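Over 236 samples and 12311 genes, the genes whose TPM followed a member most closely (Spearman correlation, given as a description, since the samples share libraries of differing depth) were, for IGF1, COL6A3 (0.728), a chain of type VI collagen, PDGFRB (0.721), a receptor of mesenchymal cells, and SASH1 (0.715). For IGFBP5 they were MAP1A (0.756), PTGFRN (0.746) and COL6A1 (0.738), another type VI collagen chain. IGF2R was followed by HSPG2 (0.878), the matrix proteoglycan perlecan, PI4KA (0.862) and ULK1 (0.861), a kinase that starts autophagy. IGF1R was followed by MAP3K4 (0.927), POGZ (0.925) and ZKSCAN8 (0.919). IGFBP2 was followed by NIBAN2 (0.821), KHNYN (0.809) and WTIP (0.798), and IGFBP7 by IGFBP2 (0.783), VWA1 (0.769) and NIBAN2 (0.762). IGFBP4 was followed by KANK3 (0.795), GMEB2 (0.765) and TMUB2 (0.750), and IGFBP6 by ADI1 (0.752), IRGQ (0.751) and CD99L2 (0.746).

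Among the members, the Spearman correlation of IGF1 with IGFBP5 was 0.625, and 0.516 with group means removed. That of IGF1R with IGF2R was 0.610, and 0.792 with group means removed, and that of IGF1R with IGFBP6 was -0.580 and -0.500.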
